A study of Homo sapiens with 15 samples.

Results

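The comparison described here set adipocytes kept in tumour-conditioned medium (DED) against adipocytes kept in control medium (MA), in ASC52 cells, a human adipose-derived mesenchymal stem cell line immortalised with telomerase. Its members are the 5 arrays with DED and the 5 with MA in their titles, 10 of the 15 arrays of the series, and the results cover 17687 genes with a symbol. Both groups were seeded in a stem cell growth medium, moved after 3 days to an adipogenic differentiation medium for 14 days, and then held for a further 7 days. In MA the last medium was RPMI with 10% fetal bovine serum. In DED it was medium of the same base and serum that had been conditioned by breast carcinoma cells of the human line MDA-MB-231, which have mesenchymal features. The other 5 arrays, undifferentiated cells of the same line (MSC), entered the estimate of spread, and their levels are given where they help to place a value. All groups come from 1 cell line, and whether the arrays of a group are separate cultures is not in the labels. The p-values therefore weigh differences against the spread among these arrays alone, and that spread may be technical.

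Fat cells form when PPARG and the C/EBP factors switch on genes for lipid uptake, triglyceride storage and hormone secretion, and the finished cell keeps that programme only while these factors stay active. Fat cells next to a tumour can lose lipid and hormone secretion and take on features of fibroblasts, with secretion of inflammatory factors and remodelling of matrix, and the word dedifferentiation is used for this. A second programme that bears on the results is the integrated stress response. In it, phosphorylation of the initiation factor eIF2 slows protein synthesis but favours translation of ATF4, a factor that binds genes for amino acid synthesis, amino acid import and tRNA loading.

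Values are log2 intensities after RMA, and all differences are DED minus MA on that scale, so that 1 is a doubling and every "rose by" or "fell by" below is in log2 units with its standard error (SE). A value after ± is the SD over the 5 arrays of a group (n = 5). The median over genes was 6.95 to 6.99 on every array of DED and MA. The arrays of a group correlated with each other at 0.992 or more in MA and at 0.982 or more in DED. The lowest value was that between DED arrays 1 and 3, which were the 2 arrays with the lowest precision weights (0.515 and 0.489, against 0.826 to 1.72 on the other DED and MA arrays). The 612 negative control probe sets had a 95th percentile of 8.31, which is called background here, and they differed by a median of 0.035 between the groups. A difference whose lower group lies under 8.31 depends on background, so it is given on the log2 scale and not as a fold.

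The label of the groups was set against marker genes. Of 9 measured adipocyte markers 8 lay above background in MA, and the same 8 had fallen in DED. The exception was leptin (LEP), under background in both groups (6.73 ± 0.20 and 7.40 ± 0.85, adjusted p = 0.078, and 0.026 without DED array 2 or 0.044 without DED array 4). Mesenchymal stromal markers were high in both groups, with the matrix protein DCN at 17.39 ± 0.078 in MA and 17.28 ± 0.32 in DED. They were not all unchanged, since 2 of 11 rose and 4 fell (54.5% called). Without DED array 3, 4 rose. All 13 measured epithelial markers failed to pass the test, and their mean per array ran from 5.61 to 5.73 in MA and from 5.66 to 5.79 in DED. The carcinoma marker EPCAM was at 4.21 ± 0.11 in MA and 4.35 ± 0.25 in DED, and KRT8 was the only one of them above background. The mean of 16 leukocyte markers ran from 5.99 to 6.14 in MA and from 6.23 to 6.42 in DED, with PTPRC (CD45) at 5.51 ± 0.32 and 5.76 ± 0.22. The mean of 8 smooth muscle and pericyte markers ran from 8.78 to 8.96 in MA and from 8.80 to 9.64 in DED, the highest on DED array 3. Of these 8, 2 rose, and 0 did so without DED array 3 or 4 or MA array 1, 4 or 5. The mean of 10 endothelial markers ran from 6.02 to 6.20 in MA and from 6.06 to 6.27 in DED, and 1 of the 10 rose, by 2-fold or more. In total RNA of a culture, fewer fat cells and less RNA of fat cell genes per cell cannot be told apart.

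Of 17687 genes, 2283 rose and 2304 fell in DED at an adjusted p under 0.05 (limma, Benjamini-Hochberg over all genes), which is 25.9% of genes, 12.9% upward and 13% downward. The arrays of the 2 groups did not overlap in 3200 genes (18.1%). The median difference over all genes was 0.018 and the median absolute difference 0.194. With a difference of at least 2-fold added, 496 genes rose and 616 fell (2.8% and 3.48%), with 4-fold 116 and 147, with 8-fold 34 and 45, and with 16-fold 10 and 9. These counts include genes with a group under background, where the size depends on it. With both groups above background they were 289 and 274, 44 and 54, 11 and 18, and 3 and 3 in the same order. The share called was 43.9% among the 5903 genes with both groups above background, and 13% among 11030 genes with neither. It was 74.8% among the 754 genes with only 1 group above it, a class that the difference itself defines. Shares called of the lists below are set against all genes, and not against genes of like brightness.

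**Figure D1:**
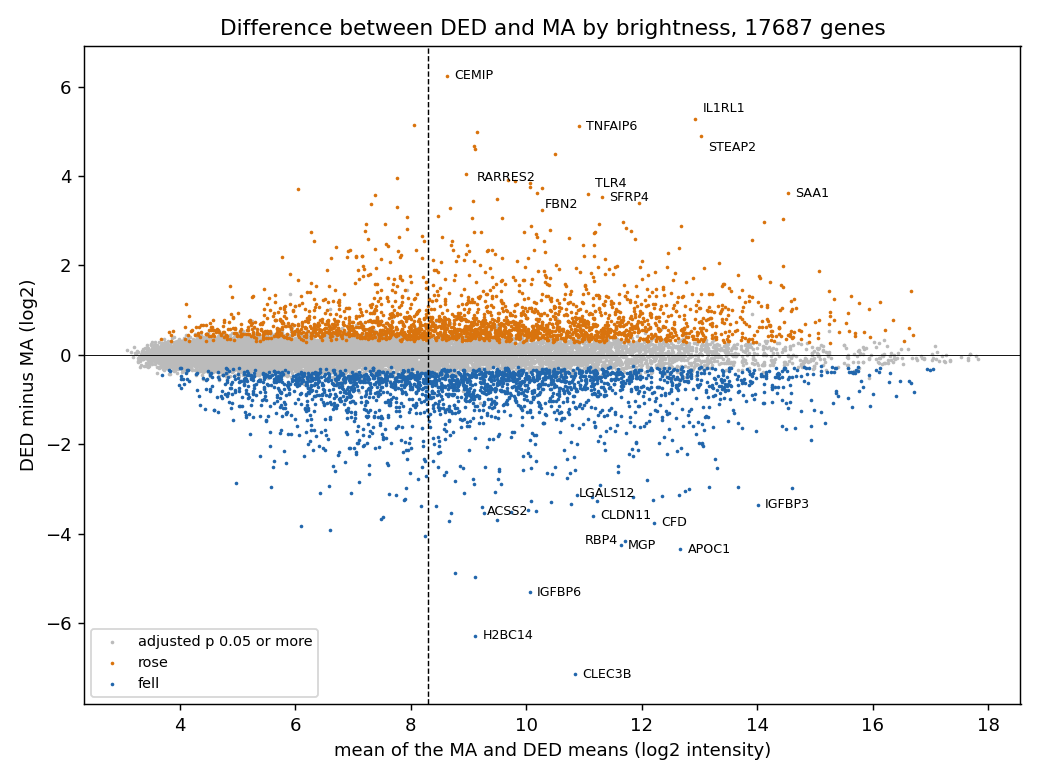
Each point is 1 of 17687 genes, with the mean of its MA and DED means on the x axis (log2 intensity) and its log2 difference DED minus MA on the y axis; orange points rose and blue points fell at an adjusted p under 0.05, grey points did not pass. The dashed line marks the 95th percentile of the negative controls (8.31). Labelled are the 8 largest rises and 8 largest falls whose group means both lie above it, and CEMIP, CLEC3B, H2BC14 and IGFBP6, of which CEMIP (6.24) and CLEC3B (-7.15) lie farthest out.

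Among genes bright in both groups the largest rise was that of IL1RL1, the receptor for interleukin-33. It read 10.40, 10.38, 10.54, 9.70 and 10.45 on the MA arrays and 15.82, 15.33, 15.62, 15.33 and 15.75 on the DED arrays. The groups lay far apart, with a fold of 38.7 (difference 5.28, SE 0.15, limma adjusted p = 3.3e-15), while MSC stood at 5.51 ± 0.11. TNFAIP6, which crosslinks hyaluronan, followed, with 8.22, 8.11, 8.61, 8.33 and 8.55 in MA and 12.52, 13.23, 13.93, 13.69 and 14.02 in DED (34.6-fold). Its MA mean was barely above background, and the MA values of 8.22 and 8.11 lay under it. The fold of TNFAIP6 therefore depends on background. All DED arrays of TNFAIP6 were above all MA arrays, and DED array 1 was the lowest of them. STEAP2, a membrane reductase of iron and copper, rose by 4.89 (SE 0.17) and the acute phase protein SAA1 by 3.62 (SE 0.21), the latter from 12.73 ± 0.18 to 16.35 ± 0.33 and thus near the top of the scale. RARRES2, the precursor of the chemoattractant adipokine chemerin, rose by 3.73 (SE 0.27).

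Receptors and secreted factors made up much of the rest of these rises. TLR4, the receptor for bacterial lipopolysaccharide, went from 9.26, 9.12, 9.37, 9.49 and 9.14 to 13.24, 13.12, 12.36, 12.92 and 12.71. Its groups did not overlap, and its MSC mean was 7.43. The netrin receptor UNC5B rose by 3.41 (SE 0.23), the adhesion molecule CADM3 by 3.23 (SE 0.22), the Wnt antagonist SFRP4 by 3.52 (SE 0.26), the secreted glycoprotein STC1 by 3.04 (SE 0.27) and the microfibril protein FBN2 by 3.62 (SE 0.20). MSC stood near DED for UNC5B (13.02 against 13.66) and SFRP4 (12.34 against 13.08). For FBN2 (6.37), CADM3 (5.62) and STC1 (9.06) it stood below both groups.

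The largest falls among genes bright in both groups were led by secreted proteins. The apolipoprotein APOC1 read 14.79, 14.84, 14.96, 14.71 and 14.95 in MA and 12.04, 10.36, 10.05, 9.84 and 10.20 in DED. DED array 1 was the highest DED array by a wide margin, but still below every MA array (difference -4.35, SE 0.33, a 20.4-fold lower mean). The same shape was seen in CFD, the complement factor adipsin, at 14.08, 14.12, 14.07, 14.06 and 14.14 in MA and 11.71, 10.51, 9.52, 9.88 and 10.08 in DED. MGP, an inhibitor of calcification, fell by 4.26 (SE 0.38), and the retinol carrier RBP4 fell by 4.16 (SE 0.24). IGFBP3, the main IGF-binding protein of serum, fell by 3.36 (SE 0.22) from a level of 15.69 ± 0.088 that MSC shared (15.63 ± 0.23).

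Membrane and intracellular proteins were also among them. The tight junction protein CLDN11 fell by 3.60 (SE 0.16), the angiotensin receptor AGTR1 fell by 3.25 (SE 0.18), and the galectin LGALS12, which sits on lipid droplets, fell by 3.34 (SE 0.29). The acetyl-CoA synthetase ACSS2 fell by 3.50 (SE 0.17) and the retinol dehydrogenase RDH5 fell by 3.28 (SE 0.20). LDB2, a LIM domain cofactor, fell by 3.29 (SE 0.17), and the linker histone H1-5 fell by 3.28 (SE 0.16). CLDN11 and LDB2 were about as high in MSC (12.81 and 11.92) as in MA (12.96 and 12.08), so their DED level lay below that of both other groups.

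**Figure D2:**
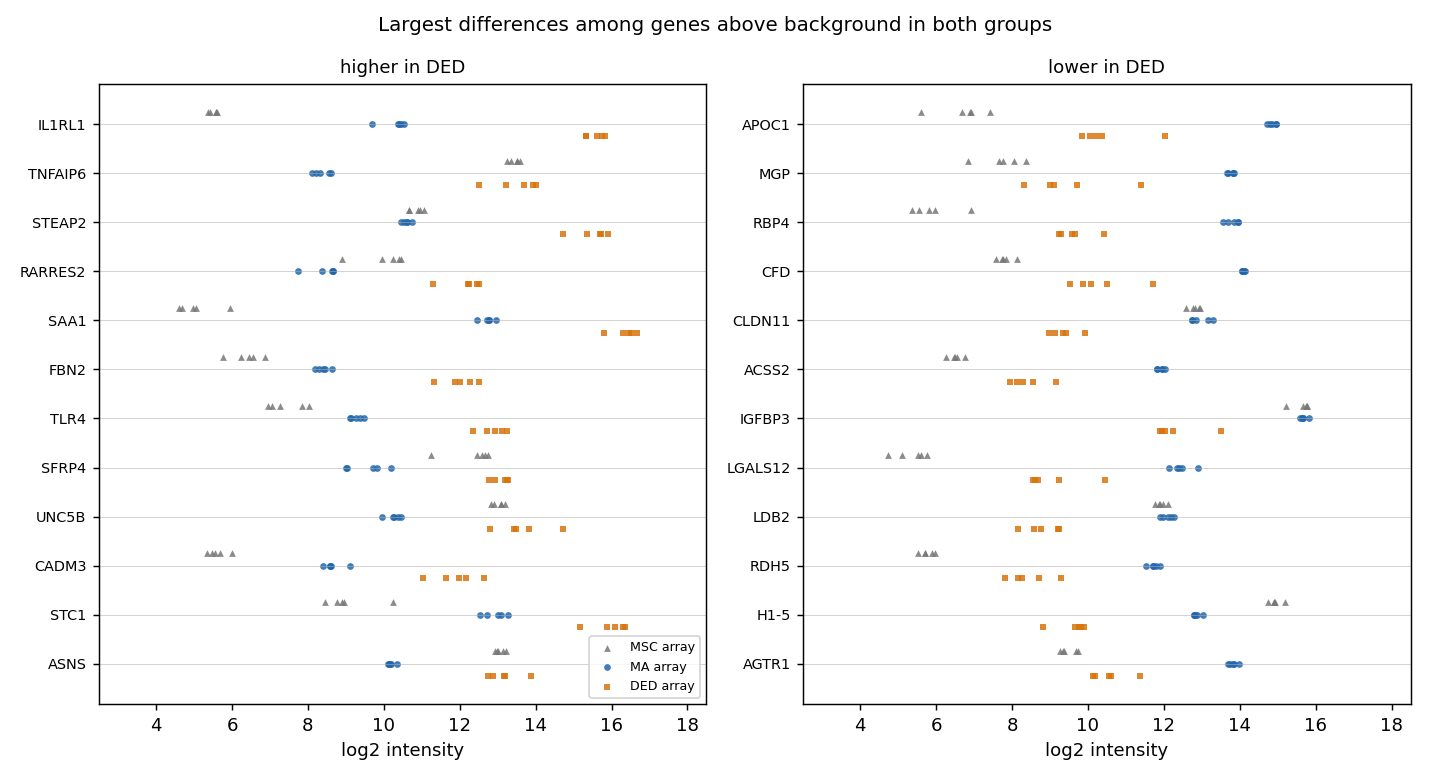
Log2 intensity (x axis) of the 12 largest rises and 12 largest falls among genes with both group means above background, 1 point per array in DED, MA and MSC. In every row the 5 DED points and the 5 MA points are apart, and for APOC1, MGP and CFD DED array 1 is the DED point nearest to MA.

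A stricter view counts genes that crossed background altogether. On every DED array 88 genes were above 8.31 while every MA array was below it, and 123 genes did the reverse. Of the 88 genes on in DED, 39 were also above background on every MSC array and 42 were below it on every MSC array. Of the 123 genes off in DED, 66 were above it in MSC and 44 below. The largest change among genes on in DED was that of CEMIP, which breaks down hyaluronan, at 5.80, 5.52, 5.71, 4.98 and 5.55 in MA and 11.58, 12.15, 11.11, 11.93 and 12 in DED. Next were STEAP4 (5.14, SE 0.44), the hemoglobin-haptoglobin receptor CD163 (4.99, SE 0.25), the BMP antagonist GREM1 (4.68, SE 0.28) and the aromatase CYP19A1 (4.61, SE 0.19).

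Another 7 of the 88 genes on in DED had MSC arrays on both sides of background. The chemokine-binding receptor ACKR1 (MSC 4.95), TMEM176A (MSC 4.01), TMEM176B (MSC 5.55) and the integrin ligand NPNT (MSC 5.97) were below background in MSC as in MA. They rose by 3.95 (SE 0.22), 3.38 (SE 0.17), 3.44 (SE 0.18) and 3.32 (SE 0.28) in that order. GREM1 (MSC 11.71), SCRG1 (MSC 11.59), the adhesion receptor ADGRD1 (MSC 10.19), the matrix protein MXRA5 (MSC 12.52) and the collagen-binding integrin ITGA11 (MSC 10.08) were above background in MSC. Their DED means were 11.44, 11.64, 11.76, 11.24 and 10.03 against MA means of 6.76, 7.74, 7.86, 7.75 and 6.93. PAPPA2, a protease that frees IGF from its binding proteins, was on MSC arrays at 9.91 and rose by 4.04 (SE 0.28).

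The largest fall of all genes was that of CLEC3B (tetranectin), a plasminogen-binding protein, which read 14.57, 14.30, 14.44, 14.12 and 14.68 in MA and 8.73, 7.45, 5.92, 6.92 and 7.34 in DED (difference -7.15, SE 0.36). It is not counted among the 123 because DED array 1 stayed above background, and it was picked for the text after its values were seen. Among genes off in DED the histone gene H2BC14 had the largest fall (-6.28, SE 0.24), followed by IGFBP6, a binding protein that prefers IGF2. IGFBP6 read 12.88, 12.71, 12.74, 12.56 and 12.69 in MA and 7.65, 7.17, 7.37, 7.51 and 7.33 in DED, a narrow spread on both sides and the smallest adjusted p of all genes (2.1e-17, limma). SCUBE3, a secreted signalling protein (-4.98, SE 0.14), the iron-binding protein lactoferrin LTF (-4.89, SE 0.22) and HPGD, which inactivates prostaglandins (-4.05, SE 0.18), came next. The joint lubricant PRG4 fell by 3.68 (SE 0.20), the matrix protein ASPN fell by 3.25 (SE 0.24), the repulsive guidance factor SEMA3A fell by 3.63 (SE 0.15), the natriuretic peptide receptor NPR1 fell by 3.39 (SE 0.16) and the laminin-binding integrin ITGA3 fell by 3.39 (SE 0.31). The methyltransferase-like TMT1B fell by 3.23 (SE 0.16), and the cell division genes ANLN and CDKN3 changed by -3.53 (SE 0.12) and -3.14 (SE 0.16). LTF, HPGD, NPR1 and TMT1B were below background in MSC too, whereas H2BC14, IGFBP6, PRG4, ASPN, ANLN and CDKN3 were high there.

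**Figure D3:**
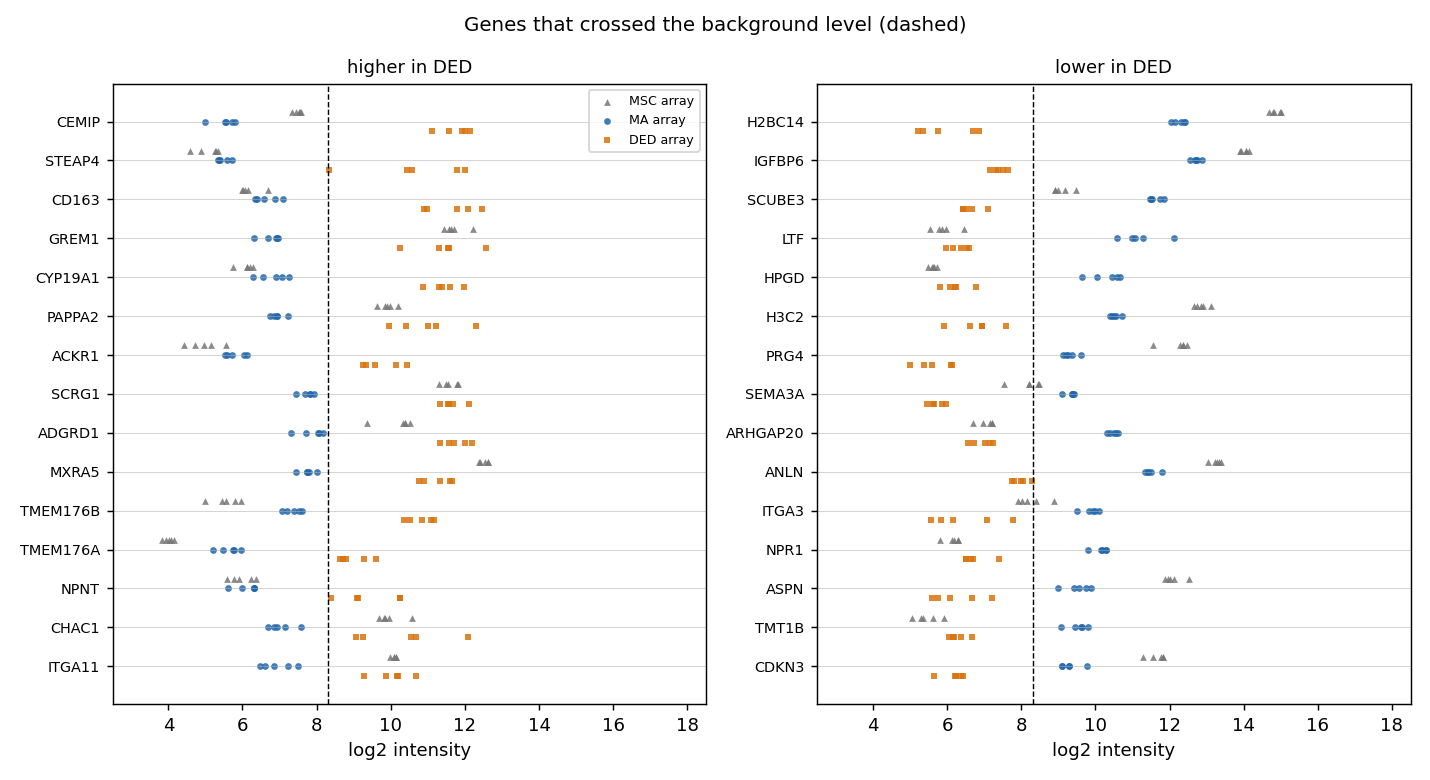
Log2 intensity (x axis) per array of the 15 genes with the largest rise among the 88 that were on in DED, and of the 15 with the largest fall among the 123 that were off. The dashed line is the 95th percentile of the negative controls (8.31), and the MSC points fall on either side of it from gene to gene.

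Transcription regulators of fat cell formation changed unevenly. PPARG read 10.41, 10.55, 10.62, 10.74 and 10.75 in MA and 9.01, 8.91, 9.03, 8.96 and 8.52 in DED, with no overlap, and stayed above its MSC level of 7.06 ± 0.19. Of 20 measured regulators 10 fell and 1 rose (median -0.36). The early B cell factor EBF2, which primes the PPARG programme, fell by 1.78 (SE 0.12) to its level in MSC (8.65 against 8.83), and the lipogenic factor SREBF1 fell by 1.06 (SE 0.13). CEBPB (6.48 ± 0.33 and 6.18 ± 0.12, adjusted p = 0.13, and 0.047 without MA array 5) did not pass the test, and neither did KLF15 (8.68 ± 0.23 and 8.68 ± 0.23, adjusted p = 0.99) or ZBTB16 (13.53 ± 0.14 and 13.33 ± 0.12, adjusted p = 0.28). The last 2 are activated by glucocorticoid, and both stayed far above their MSC means of 5.30 and 5.76. Of 18 glucocorticoid response genes 3 rose and 3 fell (median 0.10), a share called of 33.3% against 25.9% over all genes.

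About as many genes of lipid entry and storage fell as did not pass the test, and few rose. Of 19 genes of fatty acid uptake and binding 10 fell and 1 rose (median -0.47). CD36, the fatty acid translocase, read 11.36, 11.46, 11.19, 11.51 and 11.19 in MA and 8.35, 7.58, 7.16, 7.50 and 7.69 in DED, so every DED array but array 1 lay under background. The acyl-CoA synthetase SLC27A3 fell by 2.83 (SE 0.16), the fatty acid carrier FABP5 fell by 2.21 (SE 0.14) and caveolin CAV1, which shapes membrane pits, fell by 1.97 (SE 0.17). FABP3, the heart-type carrier, rose by 1.21 (SE 0.27), or by 0.78 without DED arrays 1 and 3, though arrays of the groups overlapped. Of 16 lipid droplet proteins 8 fell and 2 rose (median -0.47). CIDEC, which fuses droplets, fell by 2.98 (SE 0.30), the seipin gene BSCL2 fell by 1.17 (SE 0.12) and the coat protein PLIN2 fell by 1.02 (SE 0.14), while PLIN2 stayed well above MSC (14.42 against 9.91). HILPDA, which inhibits lipolysis, was at 9.58 ± 0.15 in MA and 9.67 ± 0.27 in DED (adjusted p = 0.72).

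Of 16 genes of triglyceride and glycerol synthesis 9 fell and 1 rose (median -0.74). The glycerol-3-phosphate dehydrogenase GPD1 fell by 3.13 (SE 0.33), the glycerol channel AQP7 fell by 2.79 (SE 0.25) and the last enzyme of triglyceride synthesis, DGAT2, fell by 1.48 (SE 0.22). The exception was PCK2, the mitochondrial phosphoenolpyruvate carboxykinase and a known ATF4 target, which rose by 1.95 (SE 0.21). Lipolysis and its control had 11 falls and 0 rises among 19 genes (median -1.04). The triglyceride lipase PNPLA2 fell by 1.58 (SE 0.21), the hormone-sensitive lipase LIPE fell by 1.47 (SE 0.26) and the lysosomal lipase LIPA fell by 1.97 (SE 0.17). Antilipolytic parts of the pathway fell as well, with the phosphodiesterase PDE3B at -2.53 (SE 0.19) and the adenosine receptor ADORA1 at -2.13 (SE 0.16). The beta-adrenergic receptors ADRB1 (5.44 ± 0.40 and 5.34 ± 0.24) and ADRB3 (3.93 ± 0.22 and 3.90 ± 0.18) were under background in both groups.

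Hormone and carrier genes of fat cells split. Of 21 adipokines 6 fell and 3 rose (median -0.094), and the 2 of this list that rose by over 2-fold were the stress-induced GDF15 (2.16, SE 0.26) and NAMPT, the visfatin gene (1.64, SE 0.17). The list does not hold RARRES2, the chemerin gene described above, which rose more than either. Retinoid genes showed 2 rises and 6 falls among 21, with the saturase RETSAT at -1.58 (SE 0.14) and the retinoic acid carrier CRABP2 at -2.10 (SE 0.37) beside RBP4 and RDH5. Of 18 apolipoproteins and lipid transfer genes 4 rose and 3 fell (38.9% called, against 25.9% over all genes). The cholesterol exporter ABCA1 rose by 0.86 (SE 0.13) and APOE fell by 1.95 (SE 0.48). APOD, a small lipid carrier, read 15.69, 15.70, 15.81, 15.79 and 15.72 in MA and 15.88, 15.01, 11.45, 14.13 and 14.22 in DED (difference -1.60, adjusted p = 0.02). Its DED arrays ran from the MA level in array 1 to far below it in array 3, so that the groups overlapped. Without DED array 3 the difference of APOD was -0.93.

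The insulin pathway moved in both directions, with 6 rises and 5 falls among 19 genes (median 0.092). The insulin-responsive glucose carrier SLC2A4 (GLUT4) fell by 1.15 (SE 0.18), and the docking protein IRS1 fell by 0.78 (SE 0.15). The other docking protein, IRS2, rose from 7.90, 7.79, 7.93, 7.82 and 7.90 to 9.77, 9.52, 10.37, 10.15 and 10.13, and the groups did not overlap. SLC2A3 (GLUT3), a high-affinity glucose carrier, rose by 1.70 (SE 0.14), the adaptor GRB10 by 1.48 (SE 0.17), the ubiquitin ligase CBLB by 1.26 (SE 0.12) and the receptor INSR by 0.67 (SE 0.18). FOXO1, a factor that insulin holds out of the nucleus, was 10.80 ± 0.11 in MA and 10.74 ± 0.31 in DED (adjusted p = 0.9).

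Mitochondrial fuel oxidation fell across lists. Of 21 genes of mitochondrial fatty acid oxidation 16 fell and 1 rose (81% called, median -0.69). The electron transfer subunit ETFB fell by 1.60 (SE 0.11), the long-chain dehydrogenase ACADVL fell by 1.46 (SE 0.13) and the hydroxyacyl-CoA dehydrogenase HADH fell by 1.39 (SE 0.14). In the tricarboxylic acid cycle with pyruvate entry 17 of 28 genes fell and 1 rose (median -0.49). The citrate lyase ACLY fell by 1.91 (SE 0.17), the pyruvate carrier MPC2 fell by 1.47 (SE 0.13) and the pyruvate dehydrogenase subunits DLAT and PDHA1 changed by -1.43 (SE 0.13) and -1.28 (SE 0.11). Branched-chain amino acid breakdown had 13 falls among 23 genes (median -0.50), and its 1 rise was that of BCAT1, the cytosolic transaminase, by 1.02 (SE 0.14).

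The change did not extend evenly to all organelle genes. Of 25 peroxisome genes 12 fell and 1 rose (median -0.19), with the multifunctional enzyme HSD17B4 at -1.37 (SE 0.11). Mitochondrial ribosome proteins had 17 falls and 4 rises among 71 genes (median -0.16), with no member changed 2-fold, and their share called of 29.6% was near that of all genes. However, 59 of the 71 had a group mean above background, and the share among all genes with both groups above it was 43.9%. Of the 4 rises 1 was called without DED array 3, and 2 without DED array 4, MA array 2 or MA array 4. Cytosolic ribosomal proteins had the lowest share called of the 64 lists that are not cell type markers, with 3 falls and 0 rises among 44 genes (6.82%). With 1 array left out at a time it held 0 to 6 falls, the fewest without DED array 3 or MA array 2.

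Most sterol synthesis genes fell. Of 22 genes of sterol synthesis and uptake 15 fell and 3 rose (median -0.78). The mevalonate decarboxylase MVD read 12.68, 12.87, 12.61, 12.60 and 12.89 in MA and 10.02, 9.79, 9.14, 9.63 and 9.17 in DED. Every DED array was at least 2 units below every MA array, and the DED mean was near that of MSC (9.55 and 9.53). The isomerases EBP and IDI1 changed by -2.62 (SE 0.15) and -2.10 (SE 0.14), and NSDHL fell by 1.44 (SE 0.094). The 3 rises were those of the factor SREBF2 (0.76, SE 0.12), INSIG2, which holds it in the endoplasmic reticulum, (1.03, SE 0.13) and the demethylase CYP51A1 (0.44, SE 0.14), the last with overlapping arrays. Its adjusted p of 0.023 became 0.053 without DED array 3, 0.057 without DED array 4, 0.077 without DED array 5, 0.052 without MA array 4 and 0.059 without MA array 5.

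Most ATF4 effectors of the integrated stress response rose in DED. Of 22 measured ATF4 effectors 17 rose and 0 fell (77.3% called, median 1.57), and 15 of them by 2-fold or more. ATF4 itself rose by 0.73 (SE 0.085), the stress factors DDIT3 (CHOP) by 2.17 (SE 0.24) and ATF3 by 1.91 (SE 0.18), and CEBPG, a partner of ATF4, by 1.46 (SE 0.12). Downstream, the secreted glycoprotein STC2 rose by 3.07 (SE 0.35), the cystathionine lyase CTH by 2.71 (SE 0.22), the translation brake EIF4EBP1 by 2.20 (SE 0.19) and SESN2, which restrains mTORC1, by 2.21 (SE 0.19). DED array 3 was the highest and array 1 the lowest, with a list mean 2.38 and 1.01 above the MA mean, against 1.26 to 1.66 in the other 3 DED arrays. The MSC arrays lay 1.07 to 1.24 above the MA mean, so DED and MSC were on the same side of MA.

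Genes of amino acid supply were next. ASNS, asparagine synthetase, read 10.19, 10.12, 10.16, 10.35 and 10.13 in MA and 12.74, 12.87, 13.89, 13.19 and 13.17 in DED, a 7.9-fold higher mean, near that of MSC (13.05 ± 0.12). Of 15 genes of serine, glycine and one-carbon synthesis 9 rose and 3 fell (median 1.29), with PSAT1 at 2.83 (SE 0.24) and the mitochondrial folate enzyme MTHFD2 at 1.74 (SE 0.15). The falls were those of the folate dehydrogenase ALDH1L1 (-3.08, SE 0.35), thymidylate synthase TYMS (-2.56, SE 0.18), which also belongs to DNA replication, and MTHFD1 (-0.66, SE 0.11). Cytosolic aminoacyl-tRNA synthetases rose in 11 of 17 cases and fell in 1 (median 1.02). WARS1, which loads tryptophan, read 12.80, 12.45, 12.57, 12.82 and 12.57 in MA and 15.16, 15.43, 16.24, 15.65 and 15.55 in DED, and YARS1, which loads tyrosine, rose by 2.10 (SE 0.12). Of the 15 mitochondrial synthetases 2 rose and 1 fell (20% called, median -0.028).

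Among 28 amino acid transporters 12 rose and 1 fell (3 fell without DED array 2), against 12.9% and 13% over all genes. The large neutral amino acid carrier SLC7A5 read 7.92, 8.27, 8.14, 8.13 and 8.32 in MA and 10.63, 11.55, 13.49, 12.28 and 12 in DED. The cystine carrier SLC7A11 read 8.10, 8.14, 8.20, 8.41 and 8.08 and 11.05, 11.54, 13.12, 12.02 and 11.99. In both genes DED array 3 was highest, and MSC (12.02 and 11.85) lay near the DED means (11.99 and 11.94). The glycine carrier SLC6A9 rose by 2.56 (SE 0.30) and the glutamine carrier SLC38A1 by 2.31 (SE 0.20). CHAC1, which degrades glutathione, read 6.68, 7.16, 6.85, 6.92 and 7.59 in MA and 9.06, 9.25, 12.08, 10.69 and 10.55 in DED, the widest DED spread of these genes.

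The 250 bases before the start of 2 of these genes are shown because they hold the composite element that C/EBP and ATF factors bind, searched as TGATGNAA on both strands. The sequences are from RefSeq (GRCh38.p14), 5′ to 3′ on the strand of the gene, and capitals mark the match. ASNS lies on the minus strand at chr7:97872409-97872658, and its match lies 68 to 61 bases before the start. CHAC1 lies on the plus strand at chr15:40953221-40953470, with the match 209 to 202 bases before the start and in reverse orientation.
ASNS: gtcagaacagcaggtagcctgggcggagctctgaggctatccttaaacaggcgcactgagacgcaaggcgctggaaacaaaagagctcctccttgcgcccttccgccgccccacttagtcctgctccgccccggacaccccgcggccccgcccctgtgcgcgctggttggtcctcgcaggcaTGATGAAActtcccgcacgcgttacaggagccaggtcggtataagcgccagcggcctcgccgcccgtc
CHAC1: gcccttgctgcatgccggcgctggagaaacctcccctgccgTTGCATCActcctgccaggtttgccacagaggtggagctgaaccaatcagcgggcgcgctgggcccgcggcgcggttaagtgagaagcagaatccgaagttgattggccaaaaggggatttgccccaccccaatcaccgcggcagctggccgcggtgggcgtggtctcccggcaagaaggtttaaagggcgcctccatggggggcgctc
The element was found in 3 (16.7%) of the promoters matched for ATF4 effectors and in 3 (27.3%) for serine and one-carbon genes. It was in 2 (14.3%) for cytosolic synthetases and in 1 (4.55%) for amino acid transporters. It was found in 2.2% of the 14250 measured genes with a promoter and in 3.19% of all 27305 promoters of that length. Among genes that rose 2-fold or more the share was 4.77%, and among those that fell 2-fold or more 2.95%. A match describes the letters only and does not show binding.

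Other stress systems had members that rose and members that fell. Of 31 endoplasmic reticulum chaperones and sensors 11 rose and 3 fell (median 0.18), or 5 fell without DED array 2. The sensor ERN1 (IRE1) rose by 2.35 (SE 0.26), HERPUD1 by 1.56 (SE 0.17) and the sensor ATF6 by 1.18 (SE 0.14), while the calcium-binding chaperone CALR fell by 0.68 (SE 0.16) and the disulfide isomerases PDIA6 and P4HB changed by -0.64 (SE 0.099) and -0.42 (SE 0.094). On DED array 1 the mean of this list was -0.044 from the MA mean, against 0.33 to 0.44 on the other DED arrays. NRF2 and glutathione genes had 8 rises and 15 falls among 38. The glutathione synthesis subunit GCLM rose by 1.79 (SE 0.29), but HMOX1 (7.40 ± 0.15 and 7.39 ± 0.15, adjusted p = 0.94) and NQO1 (12.89 ± 0.16 and 12.46 ± 0.77, adjusted p = 0.24, and 0.0028 without DED array 3) did not pass, and the aldo-keto reductases AKR1C1 and AKR1C2, which are near-identical in sequence, changed by -2.27 (SE 0.14) and -2.58 (SE 0.17). Heat shock chaperones (2 rises, 4 falls of 18) and the proteasome (7 rises, 1 fall of 34) held no member changed 2-fold. Their shares called were 33.3% and 23.5%, against 25.9% over all genes.

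Of 19 metallothionein and zinc carrier genes 12 rose and 1 fell (68.4% called, median 0.66). The zinc importers SLC39A14 and SLC39A8 rose by 2.93 (SE 0.20) and 2.47 (SE 0.21), the zinc exporter SLC30A1 by 1.16 (SE 0.11) and the metal-sensing factor MTF1 by 1.12 (SE 0.11). The metallothionein MT1X read 12.18, 12.04, 11.98, 11.80 and 12.14 in MA and 14.34, 14.00, 12.47, 13.73 and 14.17 in DED, where array 3 lay above every MA array but was the nearest to them. Metallothionein genes are close copies, so their probe sets may share signal.

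Cell division genes fell further below their level in MSC. The MSC mean was above the MA mean in 45 of 46 mitotic genes and in 49 of 53 histone genes. Of 46 genes of the mitotic spindle and cytokinesis 45 fell and 0 rose (97.8% called, median -1.56), 34 of them by 2-fold or more. Only 16 of the 46 had a group mean above background, and the size of a fall in the others depends on background. The contractile ring protein ANLN read 11.43, 11.51, 11.43, 11.35 and 11.79 in MA and 8.28, 7.99, 7.81, 7.75 and 8.04 in DED, with MSC at 13.26 ± 0.14. Of 38 DNA replication genes 27 fell and 0 rose (median -0.73), with the ribonucleotide reductase subunit RRM2 at -2.51 (SE 0.17) and the helicase cofactor GINS1 at -2.09 (SE 0.099). Of 53 replication-dependent histone genes 30 fell and 1 rose (median -0.51), with H3C2 at -3.72 (SE 0.20) and H2AC11 at -3.04 (SE 0.27). H2BC14 read 12.15, 12.43, 12.04, 12.32 and 12.38 in MA and 6.87, 6.71, 5.22, 5.76 and 5.34 in DED, with 14.86 ± 0.13 in MSC. Histone genes are near-identical copies, so signal of one may be read by the probe set of another. A group mean lay above background in 9 of the 38 DNA replication genes and in 24 of the 53 histone genes.

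Brakes and entry cyclins of the cycle did not move as one. The inhibitor CDKN1A (p21) rose by 0.84 (SE 0.20) and the p53 regulator MDM2 by 1.67 (SE 0.19), while CDK2 fell by 1.38 (SE 0.15) and cyclin E2 (CCNE2) fell by 1.12 (SE 0.22). The D cyclins differed, with CCND2 up from 12.04, 12.16, 12.06, 12.13 and 12.22 to 13.68, 14.00, 14.52, 14.09 and 14.00 and CCND1 at 11.45 ± 0.098 and 10.95 ± 0.48 (adjusted p = 0.052, and 0.0029 without DED array 3 or 0.036 without DED array 4). In all 7 of 28 rose and 10 fell.

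Promoters of 2 genes that were off in DED are shown for 2 short elements found in promoters of many mitotic genes. They are the cell cycle homology region, searched as TTTGAA, and the CCAAT box, searched as CCAAT, both on either strand. The RefSeq sequences (GRCh38.p14) again give the 250 bases before the start, 5′ to 3′ on the strand of the gene. CDKN3, a phosphatase of mitotic kinases, lies on the plus strand at chr14:54396757-54397006, and capitals mark both elements. H2BC14 lies on the plus strand at chr6:27814772-27815021, and capitals mark 5 CCAAT boxes on either strand.
CDKN3: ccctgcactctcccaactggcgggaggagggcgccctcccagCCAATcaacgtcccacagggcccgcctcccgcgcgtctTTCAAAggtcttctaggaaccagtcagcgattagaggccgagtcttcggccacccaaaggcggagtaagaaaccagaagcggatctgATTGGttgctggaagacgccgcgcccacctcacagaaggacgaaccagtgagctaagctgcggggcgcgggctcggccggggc
H2BC14: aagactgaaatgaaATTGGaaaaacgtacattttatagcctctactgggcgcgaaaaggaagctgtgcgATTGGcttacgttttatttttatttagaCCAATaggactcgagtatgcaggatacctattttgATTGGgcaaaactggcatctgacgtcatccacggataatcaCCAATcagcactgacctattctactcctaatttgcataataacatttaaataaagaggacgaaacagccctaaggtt
The homology region was found in 20 of 37 promoters of mitotic genes (54.1%) and 10.7% of measured genes, and the CCAAT box in 75.7% and 34.6%. Over all 27305 promoters the shares were 13.6% and 33%. Among all genes that fell 2-fold or more they were 15.3% and 40.9%, and among those that rose 2-fold or more 12.6% and 34.4%. For the 49 histone promoters the CCAAT share was 85.7%, and for the 35 DNA replication promoters the homology region share was 2.86%. These elements do not overlap in the sequences shown.

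In the interleukin-1 family several receptors rose, and no measured ligand lay above background. Of 21 genes of the interleukin-1 family 7 rose and 1 fell (38.1% called). The ligands IL1A (4.43 ± 0.45 and 4.39 ± 0.30) and IL1B (4.66 ± 0.33 and 4.65 ± 0.34) stayed under background, and IL33, the ligand of IL1RL1, fell by 0.88 (SE 0.22) under background in both groups. Receptors rose beside IL1RL1, with the interleukin-18 receptor IL18R1 at 2.33 (SE 0.16), IL1R1 at 0.88 (SE 0.22) and IL1RAP, the partner chain of IL1R1 and IL1RL1, at 0.90 (SE 0.13). NFKBIZ, an inducible coactivator of NF-kappaB, rose from 11.30 ± 0.21 to 13.16 ± 0.33.

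Of 21 genes of the interleukin-6 family and STAT3 5 rose and 6 fell. IL6 read 4.74, 4.72, 4.98, 5.23 and 4.78 in MA and 7.49, 7.93, 7.46, 7.60 and 7.76 in DED, apart but under background. The oncostatin M receptor OSMR rose by 1.32 (SE 0.13), STAT3 by 1.08 (SE 0.13) and the kinase PIM1 by 2.11 (SE 0.17), while the LIF receptor LIFR fell by 2.25 (SE 0.14) and SOCS3, a feedback inhibitor, was at 4.88 ± 0.18 and 4.88 ± 0.24 (adjusted p = 0.99). Of 26 chemokines 6 rose and 1 fell, a share of 26.9% near that of all genes. CCL2 rose from 7.44 ± 0.20 to 9.99 ± 0.37, CXCL5 from 6.38 ± 0.18 to 8.82 ± 0.69, and CXCL12, a stromal chemokine, fell by 0.99 (SE 0.17).

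Acute phase and complement genes also had members that rose and members that fell. Of 20 acute phase genes 3 rose and 2 fell, a share called of 25% that is near the 25.9% over all genes. The rises were the pentraxin PTX3 at 1.31 (SE 0.24) and haptoglobin HP at 1.20 (SE 0.25, overlapping arrays) beside SAA1. The falls were transferrin TF at -1.06 (SE 0.18) beside LTF. In complement 4 rose and 6 fell among 27 (37% called, against 25.9% over all genes). The terminal component C7 fell by 2.21 (SE 0.36) and the lysis inhibitor CD59 fell by 1.41 (SE 0.14), while the decay factor CD55 rose by 1.36 (SE 0.13). In the TNF superfamily 8 rose and 3 fell among 35 (31.4% called, against 25.9% over all genes). Osteoprotegerin, TNFRSF11B, rose by 4.49 (SE 0.21), the death receptor TNFRSF21 fell by 2.12 (SE 0.14) and the death ligand TNFSF10 (TRAIL) fell by 1.92 (SE 0.42). Of 39 interferon-stimulated genes 7 rose and 7 fell (35.9% called, median -0.008), with USP18 at -2.33 (SE 0.16) and TRIM22 at 1.08 (SE 0.14). Class I antigen presentation had 4 rises and 2 falls among 22 (27.3% called, near the share over all genes). Of the 22, 17 had a group mean above background, and among all genes with both groups above it 43.9% were called. HLA-F rose by 1.05 (SE 0.13), though class I genes are near-identical in sequence.

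Of 21 genes of the IGF axis 11 rose and 5 fell (76.2% called), 5 by 2-fold or more in each direction. Binding proteins split, with IGFBP2 at -2.90 (SE 0.21) and IGFBP5 at -2.68 (SE 0.22) falling beside IGFBP3 and IGFBP6, and IGFBP7 (1.08, SE 0.14) and IGFBP4 (0.68, SE 0.097) rising. Proteases of binding proteins rose, PAPPA by 2.63 (SE 0.19) beside PAPPA2, and so did STC1 and STC2, which inhibit these proteases. The ligand IGF1 rose by 0.70 (SE 0.22, adjusted p = 0.021), a call lost without DED array 1 (0.059), DED array 5 (0.07), MA array 1 (0.05) or MA array 3 (0.053). The growth hormone receptor GHR fell by 2.37 (SE 0.15).

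Among TGF-beta, activin and BMP genes 18 of 64 rose and 14 fell. The BMP target ID1 fell by 2.86 (SE 0.26) and ID2 rose by 2.63 (SE 0.16), both with MA means under background. The receptor TGFBR1 rose by 2.25 (SE 0.13), the coreceptor TGFBR3 fell by 2.0 (SE 0.27), and TGFB1 was at 6.55 ± 0.21 and 6.54 ± 0.028 (adjusted p = 0.96). In the Wnt pathway 13 rose and 6 fell among 53 (35.8% called, against 25.9% over all genes). The noncanonical Wnt receptor ROR2 rose by 2.66 (SE 0.16) and the Wnt inhibitors APCDD1 by 2.36 (SE 0.21) and DKK2 by 1.24 (SE 0.19), beside SFRP4. The inhibitor DKK1 fell by 1.5 (SE 0.40), and its DED arrays reached from 8.59 to 12.11 across the MA range of 11.81 to 12.06. EGF family genes held 0 rises and 4 falls among 16 (25% called, against 25.9% over all genes). None of the measured EGF-like ligands had a group mean above background.

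Of 48 angiogenic and stromal growth factor genes 8 rose and 6 fell (29.2% called, against 25.9% over all genes). VEGFA read 12.04, 12.82, 12.62, 12.92 and 12.70 in MA and 13.74, 14.07, 14.92, 14.17 and 14.14 in DED, and did not overlap, whereas VEGFC fell by 1.84 (SE 0.18). The coreceptor NRP2 rose by 2.76 (SE 0.17), FGF2 by 1.87 (SE 0.30) and FGF7, a factor for epithelial cells, by 1.77 (SE 0.19). HGF was at 9.46 ± 0.19 and 9.18 ± 0.30 (adjusted p = 0.24), and its receptor MET fell by 2.01 (SE 0.13).

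Matrix genes moved both ways, more of them down. Of 64 glycoprotein, proteoglycan and crosslinking genes 13 rose and 26 fell (60.9% called). Beside MGP and ASPN, the proteoglycan OGN fell by 3.53 (SE 0.25) and the TGF-beta-induced adhesion protein TGFBI fell by 3.41 (SE 0.21). TGFBI had been at 16.40 in MSC and 10.95 in MA, so DED (7.53) lay farther from MSC. The fibulins FBLN1 and EFEMP1 rose by 1.63 (SE 0.24) and 1.54 (SE 0.16), and fibronectin FN1 rose by 0.44 (SE 0.084) from 16.48 ± 0.036.

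Of 39 collagen chains 6 rose and 12 fell. The microfibrillar chain COL6A3 read 16.02, 15.91, 15.91, 16.13 and 15.74 in MA and 14.64, 14.46, 14.52, 14.16 and 14.32 in DED with no overlap, COL6A2 fell by 1.13 (SE 0.10) and COL14A1 fell by 1.98 (SE 0.22). COL11A1 rose by 1.06 (SE 0.1) and the basement membrane collagen COL15A1 by 1.35 (SE 0.21). Metalloproteases and inhibitors had 7 rises and 11 falls among 51 (35.3% called, against 25.9% over all genes). The list held MMP14 at 0.73 (SE 0.13), the inhibitor TIMP4 at -1.78 (SE 0.16) and the aggrecan-cleaving ADAMTS15 at -2.13 (SE 0.23). In the plasminogen and serpin list 4 rose and 8 fell among 32 (37.5% called), with the thrombin inhibitor SERPINE2 at 1.86 (SE 0.18) and tissue factor F3 at -1.95 (SE 0.20). Hyaluronan genes had 7 rises and 4 falls among 23, and the receptor CD44 fell by 0.46 (SE 0.14).

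Of 33 integrins and cadherins 5 rose and 5 fell (30.3% called, against 25.9% over all genes), with ITGA11 and ITGA3 described above and ITGA7 at -1.87 (SE 0.16). Of 37 contractile and YAP target genes 18 rose and 3 fell (median 0.45). The LIM protein AJUBA rose by 2.33 (SE 0.35), the matricellular protein CCN1 by 1.47 (SE 0.16) and calponin CNN3 by 1.44 (SE 0.11). Smooth muscle actin ACTA2 read 11.99, 12.08, 12.09, 12.10 and 11.96 in MA and 12.10, 11.91, 14.70, 12.34 and 12.04 in DED (adjusted p = 0.28), so that only DED array 3 stood well above MA. The mean of this list was 0.87 above MA on DED array 3 and 0.33 to 0.50 above it on the others.

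Among transcription factors, the share called ranged from near that of all genes to above it. Of 39 nuclear receptors 8 rose and 4 fell (30.8% called). The vitamin D receptor VDR read 11.76, 11.82, 11.70, 11.51 and 11.56 in MA and 13.27, 13.19, 13.95, 13.50 and 13.54 in DED, with no overlap and with MSC at 13.45, and the orphan receptors NR4A3 and RORA rose by 2.63 (SE 0.19) and 1.25 (SE 0.12). Of 35 mesenchymal and lineage factors 2 rose and 7 fell, and their share called of 25.7% was near the 25.9% over all genes. The 2 rises were those of RUNX1 and RUNX2, and 5 genes rose without DED array 3. RUNX1 read 12.39, 12.74, 12.51, 12.90 and 12.66 in MA and 15.11, 15.36, 14.99, 15.26 and 15.29 in DED, above its MSC level of 14.02 ± 0.16, and RUNX2, the bone lineage factor, rose by 2.72 (SE 0.18).

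In AP-1 and immediate early genes 8 rose and 8 fell among 30 (53.3% called). JUNB rose by 2.42 (SE 0.14) and FOSL2 by 1.59 (SE 0.17), and JUN fell by 1.25 (SE 0.14). The phosphatases DUSP4 and DUSP6, which switch off ERK, changed by -1.31 (SE 0.16) and -1.28 (SE 0.18). Of 21 Kruppel-like and SP factors 2 rose and 4 fell (28.6% called, near the share over all genes), with KLF12 at -1.5 (SE 0.13). Clock genes showed 5 rises and 3 falls among 19, with the repressor BHLHE41 at -1.55 (SE 0.18) and PER2 at 0.95 (SE 0.15).

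At the membrane, iron handling had 8 rises and 5 falls among 28 genes (3 falls without DED array 2 or 4 or MA array 1 or 3). STEAP1 rose by 2.6 (SE 0.23) beside STEAP2 and STEAP4, while the iron exporter SLC40A1 fell by 1.25 (SE 0.18). STEAP4 read 5.72, 5.35, 5.57, 5.37 and 5.40 in MA and 12.01, 11.78, 8.32, 10.43 and 10.58 in DED, with array 3 barely above background. Of 28 scavenger and macrophage surface receptors 4 rose and 8 fell. CD163, a marker used for macrophages, read 7.10, 6.38, 6.59, 6.87 and 6.34 in MA and 10.89, 11.78, 10.98, 12.09 and 12.47 in DED. Of 16 leukocyte markers, CD163 included, 2 rose and 2 fell, the only other rise was CD14, to 6.91 ± 0.58 and so under background, and CD68 fell by 1.18 (SE 0.16). PTPRC, ITGAM (5.12 ± 0.047), AIF1 (4.55 ± 0.49), LAPTM5 (4.56 ± 0.10) and C1QA (5.33 ± 0.26) were under background in DED. Whether other cells have a part in the rise of CD163 was not tested.

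Prostaglandin genes had 2 rises and 13 falls among 29 (median -0.27). The receptor PTGFR rose by 1.68 (SE 0.20) and the synthase PTGS1 by 1.32 (SE 0.14), while the reductase CBR3 fell by 2.78 (SE 0.16) and the receptor PTGER2 fell by 1.83 (SE 0.22) beside HPGD. In steroid metabolism 3 rose and 6 fell among 29 (31% called, against 25.9% over all genes). CYP19A1 read 6.91, 6.56, 7.07, 6.28 and 7.25 in MA and 10.86, 11.31, 11.38, 11.59 and 11.97 in DED. It encodes aromatase, which makes estrogens, and every DED array was above background while every MA array was below it. CYP1B1, which hydroxylates estrogens, rose by 2.35 (SE 0.13), and the sulfatase STS fell by 1.24 (SE 0.16).

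Smaller groups at the cell surface were close to the share of all genes or split. Potassium channel genes had 10 rises and 6 falls among 56 (28.6% called), with the background potassium channel KCNK2 at 1.92 (SE 0.093). Only 5 of the 56 had a group mean above the negative controls' 95th percentile. Of 64 axon guidance genes 11 rose and 15 fell, with EPHB6 at -2.64 (SE 0.22) and NTN4 at 1.74 (SE 0.20). Purine signalling showed 4 rises and 6 falls among 26 (38.5% called, against 25.9% over all genes). The ATP-gated channel P2RX7 rose by 2.93 (SE 0.24) and ENPP2 (autotaxin), which makes lysophosphatidic acid, by 2.15 (SE 0.23). Lysosome and autophagy genes had 6 rises and 10 falls among 35, with GABARAPL1 at 1.01 (SE 0.12) and the collagen-degrading cathepsin CTSK at -1.70 (SE 0.41).

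**Figure D4:**
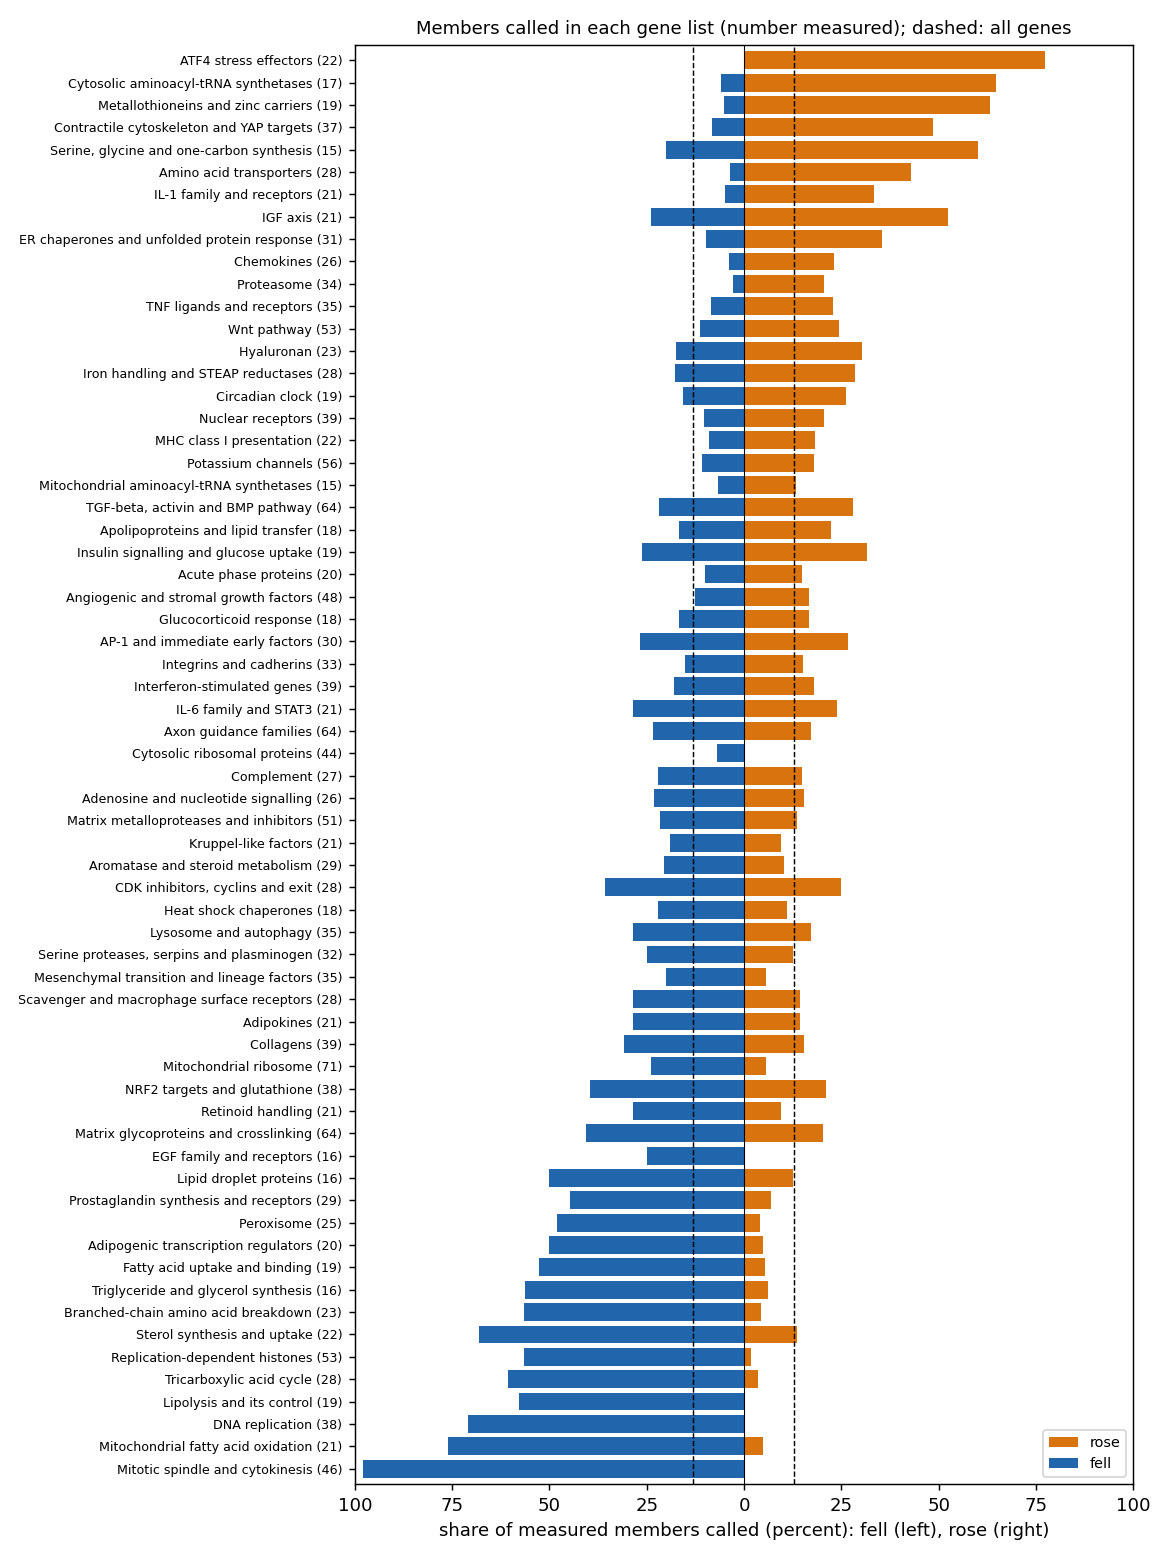
Share of measured members (x axis, percent) that rose (right, orange) and fell (left, blue) in each of the 64 gene lists, at an adjusted p under 0.05. The dashed lines give the shares over all 17687 genes (12.9% and 13%), and ATF4 effectors and tRNA synthetases reach farthest right, mitotic genes farthest left.

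The DED arrays were not alike. The median SD over genes was 0.217 in DED and 0.202 in MA, and 0.166 over DED arrays 2, 4 and 5 alone. The last value rests on fewer arrays, with the 2 at the extremes taken out, and MA was not reduced likewise. It is therefore not directly comparable with the other 2. Most of the genes with the widest DED spread had their extremes on arrays 1 and 3. CTSK read 11.88, 11.54, 8.46, 10.47 and 11.10 and DKK1 12.11, 11.21, 8.59, 9.81 and 10.43, and the matrix protein VIT 11.15, 10.45, 7.61, 9.61 and 9.61, all highest on array 1 and lowest on array 3. The growth arrest gene GADD45A ran the other way at 10.45, 10.77, 13.79, 11.76 and 11.63 (adjusted p = 0.078 against MA, and 0.014 without DED array 1 or 0.034 without DED array 2), as did TPD52L1 at 8.08, 8.96, 11.47, 9.61 and 9.40 and MARCHF4 at 6.87, 7.59, 11.57, 8.89 and 8.37 (adjusted p = 0.06, and 0.0088 without DED array 1 or 0.034 without DED array 2). TXNIP, a brake on glucose uptake, was different, with 14.55, 14.85, 14.68, 14.48 and 14.65 in MA and 14.06, 10.73, 12.24, 10.86 and 10.53 in DED, where array 1 alone was near MA. With DED arrays 1 and 3 both left out, 2167 genes rose and 2107 fell, against 2283 and 2304 over all arrays.

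List means gave the same picture. For adipocyte markers the distance from the MA mean was -1.07 on DED array 1 and -2.59 to -2.23 on the others. For mitochondrial fatty acid oxidation it was -0.85 to -0.75 on all 5, for sterol synthesis -0.80 to -0.68 and for mitotic genes -1.92 to -1.63, so these lists moved by about the same amount on each array. Metallothioneins and zinc carriers were 0.30 above MA on array 3 and 0.87 to 1.05 on the others.

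**Figure D5:**
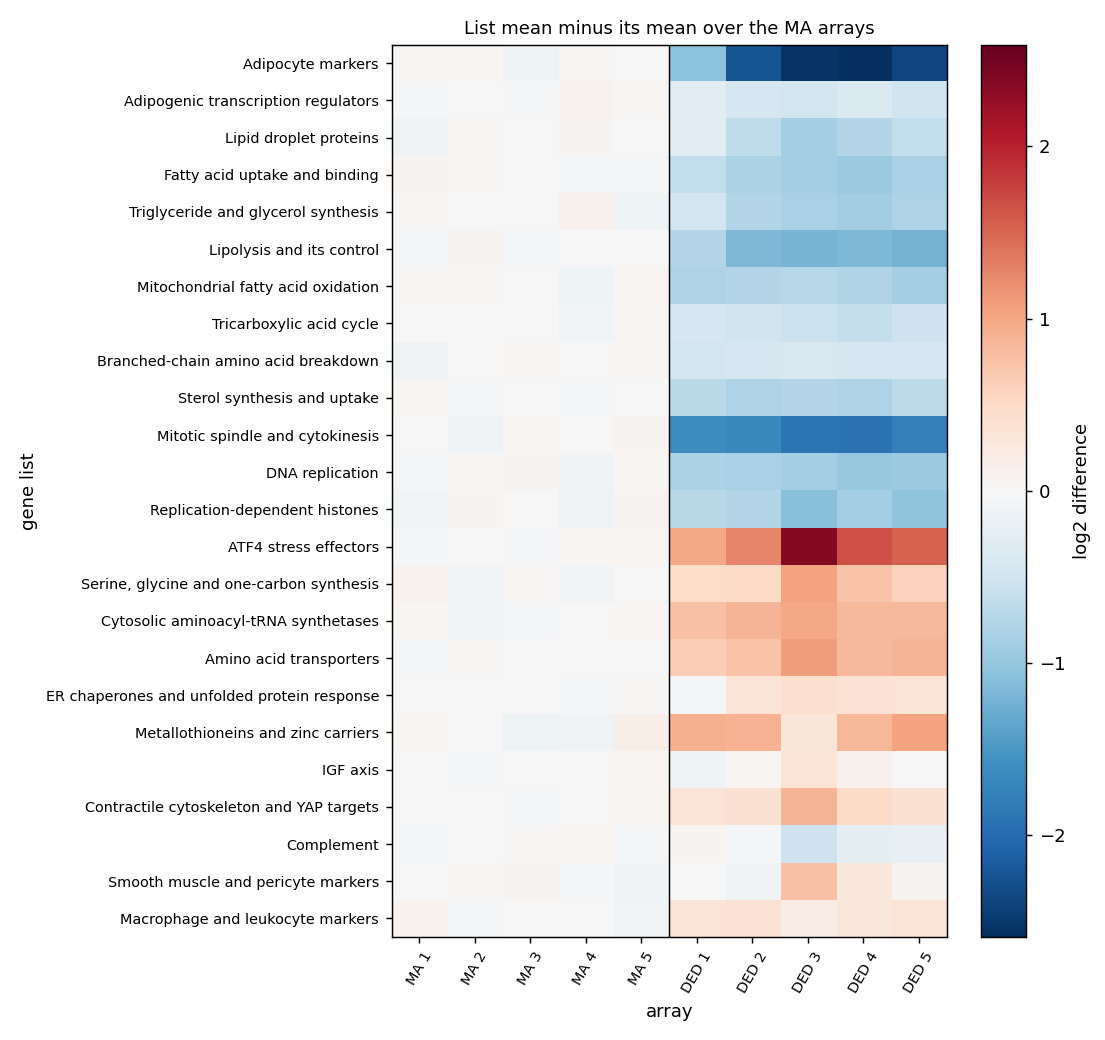
Colour gives the mean of a list on 1 array minus its mean over the MA arrays (log2), with the 5 MA and 5 DED arrays in columns and 24 lists in rows. DED array 1 is palest in the adipocyte markers (-1.07) and DED array 3 strongest in the ATF4 effectors (2.38), while mitotic genes differ little between DED arrays.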

How the data were processed

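Biotin-labelled total RNA was read on 15 single-colour arrays, 5 each of MSC, MA and DED. The authors deposited log2 values per probe set, for which the submitters' processing notes name RMA and the Transcriptome Analysis Console. Their versions and the genome build are not given here in any label or header. RMA subtracts background and aligns the arrays' distributions, so a shift common to all genes would not be seen. Of 24351 probe sets, 2903 were controls and 3739 had no gene symbol. The other 17709 gave 17687 genes, 20 of them with several probe sets, in which case the brightest one on average was used.

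One mean per group was fitted to all 15 arrays by limma's lmFit and eBayes (limma 3.58.1, R 4.3.3, two-sided moderated test), for DED minus MA, with Benjamini-Hochberg adjustment over all genes and a threshold of 0.05. The fit was tested on simulated data. The precision rests on the number of arrays, since single-channel arrays give no counts. For 14250 genes a promoter was matched by gene ID. Promoters are the 250 bases before each start in RefSeq's GRCh38.p14 table. The groups were taken from the titles. The gene lists, and the members named, were chosen with earlier results of these data known, so no list is independent support. Genes were named by rule: the 12 largest rises and 12 largest falls past the test with both group means above the negative controls' 95th percentile and no overlap between the groups' arrays; up to 15 genes on and 15 off in DED; up to 4 rises and 4 falls past the test per list, and any measured member of a list of 25 or fewer; 40 fixed genes; and the 12 genes with the largest SD over the DED arrays among those with a DED mean above that percentile. Promoters are shown for up to 4 of these genes that hold a searched motif. CLEC3B is the exception. Alternatives changed the normalization, the filter on dim genes, the probe sets, the model and the arrays used.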

Additional observations from a re-analysis of the deposited data

Results flagged for a closer look

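In 41 of 542 groups of 5 arrays formed by the genes named above, 1 array stood apart from the other 4 by Dixon's ratio (over 0.71), and likewise in 11 of 140 groups of list means. Chance alone would do so in about 1 in 20 groups of values not picked by their spread. Some of these genes were named for their spread over the DED arrays, and genes of 1 array are not independent. DED array 1 held 15 and DED array 3 15 of these, against 2 for DED array 5 and 0 for DED arrays 2 and 4. MA arrays 1 to 5 held 4, 2, 2, 5 and 7.

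DED array 1 was above the other 4 arrays of its group in APOC1 at 12.04, CIDEC at 14.71, DGAT2 at 13.91, FABP5 at 12.20, GPD1 at 10.91, IGFBP3 at 13.51, NPR1 at 7.39 and PDE3B at 8.62, and below them in IGFBP2 at 7.15, IL1RAP at 8.43 and RARRES2 at 11.30 (log2). DED array 3 was above the other 4 arrays of its group in ACTA2 at 14.70, CDKN1A at 12.25, MDM2 at 11.71, PAPPA at 12.38, SLC2A3 at 11.55 and TGFBI at 8.66, and below them in CD44 at 12.85, CDKN3 at 5.65, INSIG2 at 11.58, PTGFR at 12.40, SLC39A8 at 11.36 and STEAP1 at 12.02 (log2). DED array 5 was below the other 4 arrays of its group in H1-5 at 8.82 and PPARG at 8.52 (log2). MA array 1 was above the other 4 arrays of its group in PSAT1 at 10.65, and below them in SEMA3A at 9.11 (log2). MA array 2 was above the other 4 arrays of its group in AQP7 at 11.21, and below them in SLC2A3 at 8.89 (log2). MA array 3 was below the other 4 arrays of its group in F3 at 8.15 and NRP2 at 10.00 (log2). MA array 4 was above the other 4 arrays of its group in CAV1 at 14.18, and below them in IL1RL1 at 9.70, MPC2 at 12.62 and NPR1 at 9.81 (log2). MA array 5 was above the other 4 arrays of its group in CD55 at 12.75, IGFBP2 at 11.41, KLF15 at 9.07, MTF1 at 10.96, SLC39A8 at 10.24 and TNFRSF21 at 11.92 (log2). Among list means, as log2 distance from the MA mean, DED array 1 stood apart for Lipolysis and its control at -0.77, Adipokines at -0.17, ER chaperones and unfolded protein response at -0.044 and Adipocyte markers at -1.07. Among list means, as log2 distance from the MA mean, DED array 3 stood apart for Metallothioneins and zinc carriers at 0.30, TNF ligands and receptors at 0.34 and AP-1 and immediate early factors at 0.28. MA arrays stood apart for Retinoid handling at 0.044 (array 1), Insulin signalling and glucose uptake at 0.086 (array 4), CDK inhibitors and cyclins at 0.11 (array 5) and Aromatase and steroid metabolism at 0.10 (array 1).

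A further 3739 transcript probe sets carry no gene symbol and entered no comparison above. Fitted in the same way they held 412 that rose and 264 that fell (18.1% of them), and 407 of those called lay above the level of the negative controls. They are named by no gene here.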

How the results depend on the processing

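The counts of genes kept within 1.5 times of those reported under every alternative: dim genes left out, arrays quantile-normalized or shifted to one median, each named probe set tested singly, an intensity trend with a robust fit, array weights, a fit on the DED and MA arrays alone, the replicate block, DED arrays 1 and 3 left out, and each DED or MA array left out in turn. With 1 array left out, 2017 to 2471 genes rose and 2100 to 2305 fell, and with 2-fold added 464 to 567 rose and 596 to 644 fell. The shift to one median moved the median over all genes from 0.018 to 0.032, with 2419 rises and 2215 falls. The labels state no pairing of MA and DED arrays by replicate number. Deviations of same-numbered arrays correlated at -0.03 to 0.049 over all genes, and 0 of 5 DED arrays correlated best with its own number. Most genes had both groups under background, so a small effect shared by same-numbered arrays could be missed. With the replicate number as a block, in a fit on the DED and MA arrays alone, 1967 genes rose and 2036 fell, and 497 and 615 by 2-fold or more.

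Of all 4587 genes called, 3902 kept call and direction under the replicate block and 3893 without DED arrays 1 and 3. Many named genes were picked for large differences past the test, so their calls were likely to hold. Of 244 named genes past the test, 241 kept call and direction throughout, and none of the 271 named genes reversed. The exceptions were APOD (adjusted p = 0.071 under the intensity trend with a robust fit, limma), and CYP51A1 and IGF1, whose values without single arrays stand above. CYP51A1 was also lost under the replicate block (0.068). Of 27 named genes not past the test, 6 passed in at least 1 alternative: CCND1, CEBPB, GADD45A, LEP, MARCHF4 and NQO1. Under the block the mitochondrial ribosome had 2 rises and 11 falls in place of 4 and 17, and the cytosolic ribosomal proteins 0 falls in place of 3. List medians moved by over 1 SD of the list's mean over DED arrays in 54 of 1330 comparisons. For 11030 of 17687 genes neither group mean lay above the negative controls' 95th percentile (8.31), so these data do not place their levels above background. The cause of the lost calls was not tested.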
